A study of Mus musculus with 23 samples.

Results

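The nuclear-encoded subunits of the respiratory chain were examined in RNA of mouse spinal cord precipitated with and without tagged ribosomes. They were taken by gene name: Nduf genes of the A, B, C, S and V series for complex I, Sdha to Sdhd for complex II, Uqcr genes for complex III, Cox4 to Cox8 genes for complex IV and Atp5 genes for complex V. The rule found 85 of the 38924 genes in the files: 37 for complex I, 4 for complex II, 8 for complex III, 18 for complex IV and 18 for complex V. It used names only, and none of the measured values. A few names lie at its edge: Cox7a2l joins complexes into supercomplexes, Ndufa4 is now assigned to complex IV although its name places it in complex I, Atp5sl (listed as Dmac2 in GENCODE M21) is a complex I assembly factor, and Atp5l2 is annotated as a processed pseudogene. Atp5s, a coupling factor, is likewise not a standard subunit.

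All 23 libraries were anti-HA immunoprecipitates from spinal cord at 2 weeks of age on the B6.CgxB6.129 background. Every library was labelled Rpl+/-, carrying 1 RiboTag allele of the ribosomal protein gene Rpl22 whose HA tag is made only where Cre recombinase acts. The ChAT-Cre groups were Rpl+/-;Chat+/-, with 5 wild-type libraries (C201R+/+ in the labels) and 6 Gars C201R libraries (C201R+/-). The groups without Cre were Rpl+/-;Chat+/+, with 6 libraries of each Gars genotype, and measured what precipitates without the tag. Gars encodes glycyl-tRNA synthetase, and C201R is a dominant allele used as a mouse model of an inherited motor neuropathy. The Cre is driven from the choline acetyltransferase gene, so tagged ribosomes come from cholinergic cells, which include motor neurons and other cholinergic neurons of the cord. Nothing in the labels ties each library to its own mouse. Each p-value therefore reflects only how these libraries spread, part of which may be technical.

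The respiratory chain passes electrons from NADH (complex I) and succinate (complex II) through ubiquinone, complex III and cytochrome c to oxygen at complex IV. Complexes I, III and IV pump protons across the inner mitochondrial membrane, and complex V, the ATP synthase, uses the proton gradient to make ATP. Most subunits are encoded in the nucleus, translated on cytosolic ribosomes and imported, while a core set is encoded in mitochondrial DNA and translated inside the organelle. Complex II is the only one made wholly from nuclear genes, and it also works in the tricarboxylic acid cycle. Motor neurons have long axons and a high demand for ATP, and several complex IV subunits exist as paired isoforms, one widespread and one restricted to tissues such as muscle, lung or testis.

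The genes lie on 19 chromosomes and share little position. Promoter windows from RefSeq (GRCm38.p6, 250 bases before to 50 after each start) matched 69 of the 85 genes with 75 windows. The NRF1 motif GCGCANGCGC, searched on both strands, was in 24.0% of those windows and in 4.60% of all 32851 windows. The GABPA (NRF2) motif CCGGAAG was in 21.3% against 8.86% and the YY1 motif AAGATGG in 17.3% against 6.34%. The ESRRA motif TCAAGGTCA was in 2.67% against 0.423%, a share that rests on 2 of the 75 windows. The TATA box letters TATAAA were in 10.7% against 13.6%, and the ATF4 motif TGATGCAA was in 0% against 0.895%. The ATF4 motif is too rare for 75 windows to show whether they carry it less often. NRF1, GABPA, YY1 and ESRRA are transcription factors known to act on respiratory chain genes. Some genes have more than 1 window, matches of different motifs may overlap, and a match is a description of the sequence and not a binding site. A protein-coding gene on the opposite strand started inside 22.7% of the members' windows against 5.71% of all windows. Among these divergent pairs were Sdhd with Timm8b, Sdha with Ccdc127, Uqcrh with Lrrc41 and Ndufs6 with Mrpl36. Whether reads were counted by strand is not given in the sources used here, so reads of a divergent neighbour that overlaps a member cannot be told apart from its own.

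The 4 upstream stretches below are shown because each holds 1 of the motifs that the windows carry more often than all promoters, in genes described further on. They are written 5′ to 3′ along the gene, in lower case with the motif in capitals, and stop where any annotated M21 gene begins. The Ndufs5 stretch (chr4:123718203-123718436, minus strand) has an NRF1 motif that starts 98 bases before the RefSeq start. The Ndufb6 stretch (chr4:40279422-40279671, minus strand) has a GABPA motif, on the opposite strand, 232 bases before the start. The Uqcr11 stretch (chr10:80406831-80407071, minus strand) has a GABPA motif 66 bases before the start. The Atp5g3 stretch (chr2:73911327-73911576, minus strand) has an ESRRA motif, on the opposite strand, 52 bases before the start.
Ndufs5: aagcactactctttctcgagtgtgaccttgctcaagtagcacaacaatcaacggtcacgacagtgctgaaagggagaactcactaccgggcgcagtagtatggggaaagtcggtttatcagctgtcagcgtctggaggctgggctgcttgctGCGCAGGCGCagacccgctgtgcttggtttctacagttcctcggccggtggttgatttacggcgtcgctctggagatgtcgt
Ndufb6: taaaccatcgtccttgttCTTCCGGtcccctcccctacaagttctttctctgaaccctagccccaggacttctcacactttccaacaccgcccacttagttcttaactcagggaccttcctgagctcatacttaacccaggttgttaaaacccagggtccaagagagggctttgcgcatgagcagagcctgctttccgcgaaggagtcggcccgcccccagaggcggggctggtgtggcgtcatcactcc
Uqcr11: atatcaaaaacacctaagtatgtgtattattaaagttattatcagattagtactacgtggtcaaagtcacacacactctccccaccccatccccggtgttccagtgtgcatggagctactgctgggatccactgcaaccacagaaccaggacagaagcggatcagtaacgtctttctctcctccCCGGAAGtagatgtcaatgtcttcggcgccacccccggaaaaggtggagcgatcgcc
Atp5g3: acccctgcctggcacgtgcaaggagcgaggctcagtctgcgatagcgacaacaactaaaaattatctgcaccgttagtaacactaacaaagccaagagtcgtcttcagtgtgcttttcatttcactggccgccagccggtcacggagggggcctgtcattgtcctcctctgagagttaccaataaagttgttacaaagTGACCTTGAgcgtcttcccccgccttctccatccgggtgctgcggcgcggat

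The libraries held between 9031654 and 19671869 expected counts. Ribosomal RNA-like genes took from 50.6% to 95.6% of them, and replicate 5 of the no-Cre Gars C201R group kept the fewest other counts, 594383. Chat, which checks the Cre labels, was at 56.1 ± 11.8 CPM in Cre wild type (SD, n = 5) and 33.7 ± 13.7 in Cre Gars C201R (n = 6), against 2.25 ± 1.88 and 3.12 ± 2.64 without Cre (n = 6 each). CPM here is a count relative to the library total, ribosomal RNA included, after TMM scaling, and expressed in the usual CPM unit. Gars was at 57.9 ± 10.5 CPM in Cre wild type and 70.1 ± 21.4 in Cre Gars C201R, and a point allele cannot be checked from counts per gene. The 8 motor neuron markers found in the files, Chat among them, were present in the Cre libraries. Their summed levels were 405 to 572 CPM in Cre wild type, 141 to 479 in Cre Gars C201R and 20.4 to 82.7 without Cre. Replicate 2 of Cre wild type and replicates 4 and 6 of Cre Gars C201R carried more glial RNA than the rest of their groups. Their 9 oligodendrocyte markers summed to 3013, 5153 and 7100 CPM, where the other Cre libraries had 547 to 2110 and the no-Cre libraries 7159 to 16875. The 2 mutant libraries share the title number 18405, whose meaning the labels do not give.

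The respiratory chain genes together made up a larger share of the precipitated RNA with Cre than without it. Of all counts outside ribosomal RNA-like genes they took 2.35% ± 0.384 in Cre wild type (SD, n = 5) and 2.02% ± 0.261 in Cre Gars C201R (n = 6). Without Cre they took 0.625% ± 0.197 in wild type and 0.766% ± 0.184 in Gars C201R (n = 6 each). Every Cre library was above every no-Cre library in this share: the lowest with Cre was 1.53% and the highest without it 1.11%. In summed CPM the 5 Cre wild-type libraries stood at 6378, 3532, 5698, 5621 and 4727, with replicate 2, the one high in oligodendrocyte markers, lowest. Cre Gars C201R ranged from 3105 to 4626 with a median of 3910, no-Cre wild type from 1113 to 2399 with a median of 1500, and no-Cre Gars C201R from 1427 to 2512 with a median of 1800. In these precipitates fewer cells of a type and less RNA per cell cannot be told apart.

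**Figure D1:**
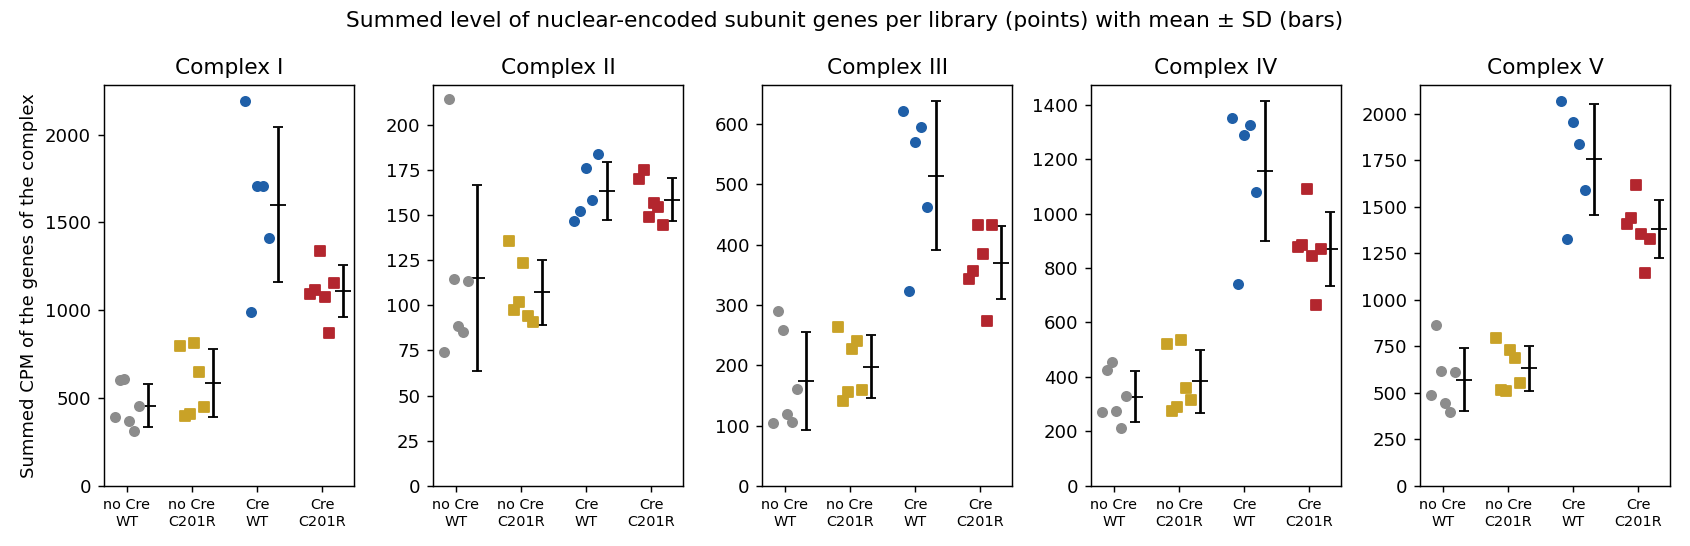
Summed CPM of the genes of each complex, one point per library, for the 4 groups on the x axis; the bar beside each group is its mean ± SD. With Cre all libraries lie above the no-Cre libraries for complexes I, IV and V. For complex III the lowest Cre library (273 CPM) lies below the highest no-Cre library (290), and for complex II the no-Cre wild-type replicate 2, at 214 CPM, is the highest of all.

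Levels per kilobase (CPM divided by effective length) ordered the genes within Cre wild type. Ndufa4, the small subunit that now counts with complex IV, stood first at 710 ± 307 CPM per kilobase (SD, n = 5). Cox4i1, the largest nuclear subunit of complex IV, followed at 577 ± 147, then Cox5a, another subunit of that complex, at 471 ± 168. Atp5b, the catalytic beta subunit of ATP synthase, was at 415 ± 40.3 and Uqcrh, the hinge protein of complex III, at 400 ± 119. These neighbours in the order differed by less than the SD of the wider one. By complex the median gene was at 157 CPM per kilobase for complex V, 119 for III, 98.3 for IV, 48.1 for I and 26.1 for II in Cre wild type. The same order of complexes held in Cre Gars C201R, with 129, 91.6, 81.0, 36.8 and 21.7 CPM per kilobase. Of the 18 complex IV genes several are restricted isoforms near 0, which are included in its median.

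**Figure D2:**
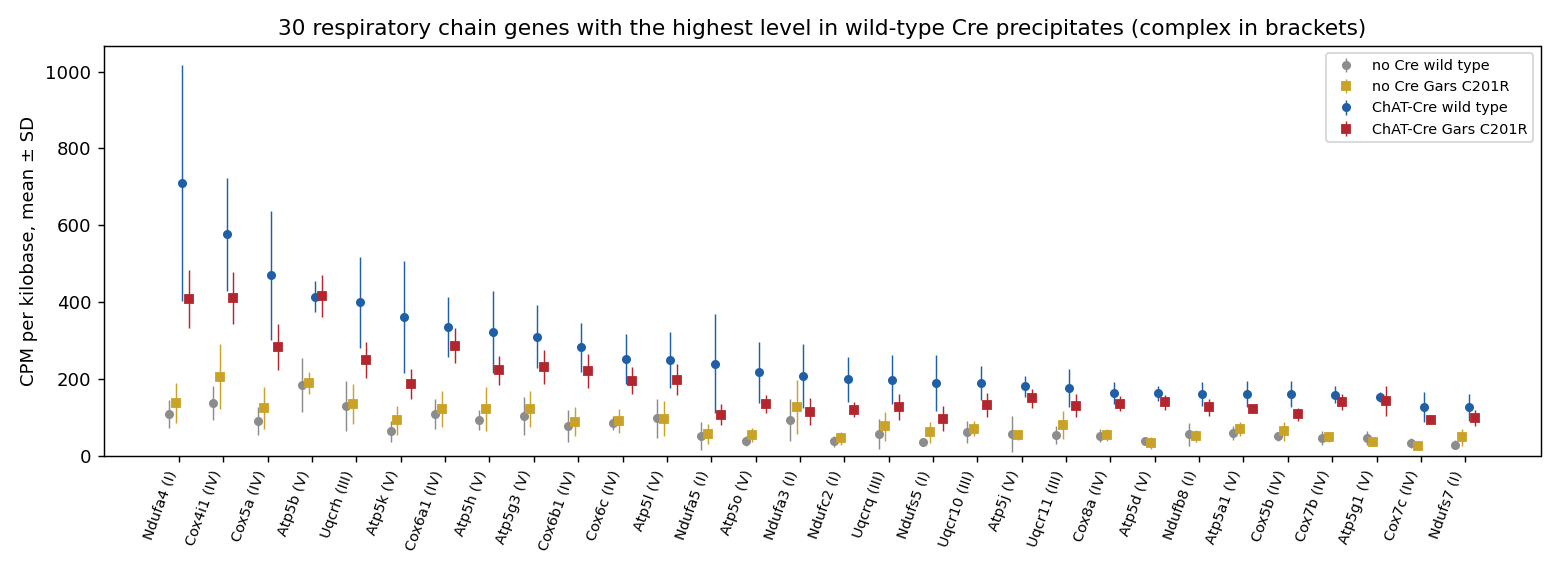
CPM per kilobase (y axis, linear) of the 30 genes with the highest mean in Cre wild type, mean ± SD over the libraries of each of the 4 groups. Ndufa4, Cox4i1 and Cox5a stand first and have wide SDs in Cre wild type, while Atp5b has nearly the same level in both Cre groups, 415 in wild type and 417 in Gars C201R.

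The Cre comparison in wild type asks which RNAs are on tagged ribosomes above the background of untagged precipitates. It tested 75 of the 85 genes, and 71 rose with Cre in edgeR's quasi-likelihood test at a Benjamini-Hochberg adjusted p under 0.05, while 0 fell. Over all 12485 genes tested, 20% were called higher, 25.9% lower and 46% in either direction. The median log2 fold change of these 75 genes was 1.74, where that of all genes was -0.14. With library totals in place of TMM scaling 25 were called (3.24% of all genes higher), with a median of 1.79. In 53 of the 75 genes every Cre wild-type library lay above every no-Cre wild-type library, against 13.3% of all genes tested. Short genes as a whole were high with Cre: among the 1572 tested genes with an effective length under 1000 bases the median was 0.81 and 39.7% were called higher. Of the 59 members that short, 58 were called with a median of 1.82, and of the 16 longer members 13 were called with a median of 1.40, where all longer genes had -0.25 and 17.2%.

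In complex I, the NADH dehydrogenase, all 36 tested genes rose, with a median of 1.80. Ndufa4 was at 405, 112, 254, 249 and 205 CPM in Cre wild type and from 26.4 to 60.8 without Cre, with a median of 37.1. The groups did not overlap, and the log2 fold change was 2.79 (SE 0.32, edgeR adjusted p = 9.24e-06), the largest of the 75 estimates. Ndufs5, an accessory subunit of the membrane side, was at 106, 33.2, 74.6, 87.9 and 58.8 CPM against 8.41 to 17.7 with a median of 14.2. It too did not overlap and rose by 2.51 (SE 0.31, edgeR adjusted p = 1.39e-05). Ndufb6, a membrane-arm subunit, was at 25.4, 14.9, 25.5, 23.3 and 14.7 CPM against 1.82 to 4.60 with a median of 3.02, and rose by 2.74 (SE 0.33). Its counts were fractional in all libraries. RSEM gives such counts where it divides reads between features, and its level is uncertain to that extent. The 7 nuclear core subunits, which bind the cofactors that carry electrons, had a median of 1.72 and the 28 accessory ones (Ndufa4 left aside) 1.77.

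In complex II, succinate dehydrogenase, 2 of 4 genes rose, and the median was 0.66. Sdhb, the iron-sulphur subunit, was at 30.8, 19.5, 30.8, 30.0 and 35.4 CPM with Cre and at 4.61 to 13.9 without it, and rose by 1.79 (SE 0.32, edgeR adjusted p = 0.00037). Sdha, the flavoprotein that oxidises succinate, was at 55.8, 78.8, 84.2, 70.1 and 78.9 CPM with Cre and from 26.5 to 95.9 without, with a median of 54.4. The groups overlapped, with a log2 fold change of 0.45 (SE 0.27, adjusted p = 0.184 in edgeR). The membrane anchor Sdhc gave 0.25 (SE 0.34, edgeR adjusted p = 0.562), and the anchor Sdhd rose by 0.86 (SE 0.33, edgeR adjusted p = 0.04), a call lost in 9 of 11 fits that each left out 1 library. No-Cre wild-type replicate 2 had the highest Sdha and Sdhc of its group, 95.9 and 95.4 CPM. Without that library all were called by edgeR: Sdha at 0.65 (adjusted p = 0.032), Sdhc at 0.71 (adjusted p = 0.0117) and Sdhd at 1.15 (adjusted p = 0.00183).

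In complex III, which passes electrons from ubiquinol to cytochrome c, all 8 genes rose, with a median of 1.72. Uqcrc1, a core protein, was at 111, 42.2, 78.4, 70.8 and 69.4 CPM against 11.2 to 35.1 without Cre, with no overlap, and rose by 1.89 (SE 0.32, edgeR adjusted p = 0.000197). Uqcr11, one of the small subunits, rose by 1.82 (SE 0.32) and Uqcrfs1, the Rieske iron-sulphur protein, by 1.30 (SE 0.31). Uqcrb, a small ubiquinone-binding subunit, had the smallest change at 1.12 (SE 0.39), and its call was lost in 5 of 11 fits without 1 library.

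In complex IV 10 of 11 tested genes rose, with a median of 1.89. Cox4i1 was at 297, 154, 275, 249 and 190 CPM with Cre and at 35.4 to 79.5 without, median 57.2, and rose by 2.15 (SE 0.28, edgeR adjusted p = 2.36e-05). Cox5a was at 343, 121, 304, 306 and 205 CPM against 27.3 to 80.3, median 43.9, and rose by 2.47 (SE 0.33). Neither gene's groups overlapped. Cox7a2l, the supercomplex factor, was at 13.1, 17.3, 22.0, 29.0 and 19.9 CPM with Cre and at 13.2 to 41.1 without. Its groups overlapped widely, and its log2 fold change of 0.02 (SE 0.32, edgeR adjusted p = 0.971) was the smallest of all tested members.

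In complex V 15 of 16 tested genes rose, with a median of 1.79. Atp5d, the delta subunit of the F1 head, was at 119, 106, 147, 131 and 128 CPM with Cre and at 23.7 to 37.3 without, median 28.3. It rose by 2.19 (SE 0.22, edgeR adjusted p = 2.44e-06), the smallest adjusted p of the members. Atp5k, a small membrane subunit, rose by 2.61 (SE 0.35) and Atp5o, which holds the stator to the head, by 2.59 (SE 0.30). Of the 3 genes that encode the same mature c-ring subunit, Atp5g1 rose by 1.81 (SE 0.26) and Atp5g3 by 1.68 (SE 0.32), while Atp5g2 was not tested, with 21 counts in all 23 libraries. Atp5sl gave 0.84 (edgeR adjusted p = 0.191).

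**Figure D3:**
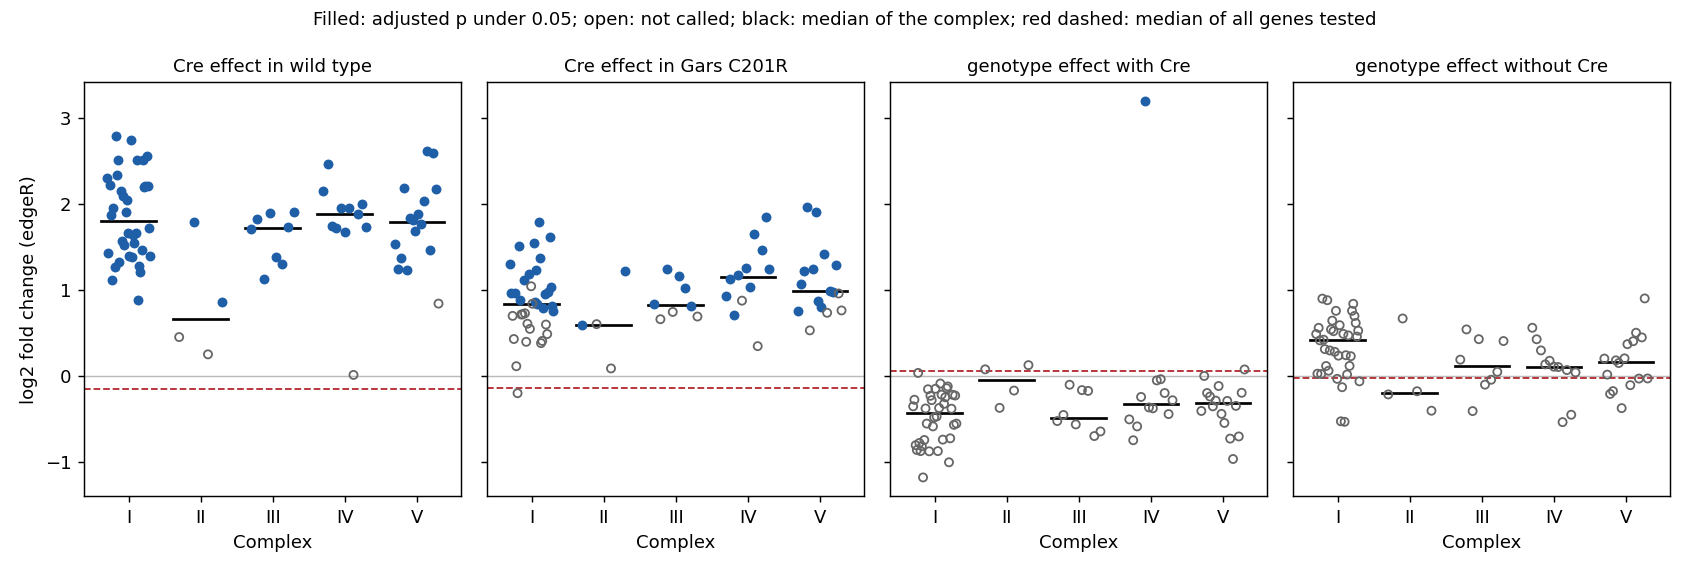
Log2 fold change of each tested gene (points) by complex in the 4 comparisons of 2 groups, with filled points called by edgeR, black lines for the median of each complex and a dashed red line for the median of all genes tested. Most points are filled and above 1 in the wild-type Cre panel, lower in the Gars C201R Cre panel, and open and mostly below 0 in the panel of the genotype with Cre, where the filled point at 3.19 is Cox6a2.

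In Gars C201R the same comparison of Cre with no Cre tested 76 members. Of these 49 rose and 0 fell, where 14.1% of 12741 genes were called higher, 19.2% lower and 33.3% in either direction. The median log2 fold change was 0.91, against -0.14 for all genes. In 31 members every Cre library lay above every no-Cre library, against 9.71% of all genes. Calls were 20 of 36 for complex I (median 0.84), 2 of 4 for complex II (0.60), 5 of 8 for complex III (0.82), 10 of 12 for complex IV (1.15) and 12 of 16 for complex V (0.98). Cre replicates 4 and 6 had the low motor neuron and high oligodendrocyte sums given above. Without the 3 libraries of title number 18405, which include both, 45 members were called (14.9% of all genes higher) and the median was 0.95. The count depended on the method: DESeq2 called 58 members (40.7% of all genes in either direction) and limma-voom with quality weights 71 (54.9%). With library totals in place of TMM scaling edgeR called 71 (27.7%). In wild type these 3 settings called 71 (50.9%), 74 (68.5%) and 25 (7.26%). The difference between the Cre effects of the genotypes is the same contrast as the difference of genotype effects tested further on.

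Among the members called in Gars C201R, Cox7c, a small subunit of complex IV, was at 27.3 to 37.6 CPM with Cre (median 32.4) and at 7.56 to 9.34 without (median 8.72). The groups did not overlap, and it rose by 1.85 (SE 0.19, edgeR adjusted p = 1.07e-05). Atp5g1 was at 52.2 to 112 CPM with Cre (median 98.2) and at 17.0 to 26.2 without (median 23.6), and rose by 1.91 (SE 0.23, edgeR adjusted p = 2.11e-05). Both genes have fractional counts in 12 or more libraries, as do 13 members in all. Cox7a2, the widespread isoform of its subunit, rose by 1.65 (SE 0.23), Ndufs8, a core iron-sulphur subunit of complex I, by 1.62 (SE 0.27), Ndufa4 by 1.51 (SE 0.27) and Sdhd by 1.22 (SE 0.33). Sdha rose by 0.59 (SE 0.21, edgeR adjusted p = 0.037), a call lost in 7 of 12 fits without 1 library. Ndufa3, an accessory subunit of complex I, gave the only estimate below 0, -0.20 (SE 0.34, edgeR adjusted p = 0.688).

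The comparison of Gars C201R with wild type among Cre libraries asks what the allele changes on ribosomes of cholinergic cells. Of 76 members tested, 1 rose, Cox6a2, and 0 fell in edgeR, where 0.234% of 12399 genes were called higher and 0.0968% lower. The estimates leaned downwards: 70 of 76 were below 0, against 45.4% of all genes, and their median was -0.36 where that of all genes was 0.06. Short genes as a whole were lower too: the 1588 tested genes under 1000 bases had a median of -0.21 and the 60 members that short -0.41, while longer genes had 0.09 and the 16 longer members -0.18. At an unadjusted p under 0.05, 29 members were lower and 1 was higher, against 8.88% and 8.16% of all genes. DESeq2 called 8 members lower (2.35% of all genes) and limma-voom with quality weights 28 (4.89%). The count turned on 1 library: without Cre wild-type replicate 2, edgeR called 27 members lower (5.04% of all genes), and without it and title number 18405 it called 34 (6.45%). In the same comparison of all libraries the 9 oligodendrocyte markers had a median of 1.58 and the 8 motor neuron markers tested -0.50, none called by edgeR, and their part in the members' values was not tested. With library totals in place of TMM the median of all genes moved to 0.79 and that of the members to 0.54, so the sign of the members' median depends on the scaling, while it lay below the median of all genes in every setting tried.

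By complex the medians were -0.42 for complex I, -0.04 for II, -0.48 for III, -0.32 for IV and -0.31 for V. Ndufa12, an accessory subunit of complex I, was at 39.1, 17.4, 27.2, 25.2 and 30.0 CPM in wild type and at 9.46 to 18.9 in Gars C201R, median 16.3. The wild-type replicate 2 lay inside the mutant range, and the log2 fold change was -0.86 (SE 0.23, edgeR adjusted p = 0.11). Ndufa5, another accessory subunit, gave the lowest estimate, with 116, 23.3, 65.1, 74.1 and 45.9 CPM against 18.8 to 40.9, or -1.17 (SE 0.33, edgeR adjusted p = 0.132). Without wild-type replicate 2 both fell in edgeR, Ndufa12 at an adjusted p of 0.0163 and Ndufa5 by 1.40 at an adjusted p of 0.0113. With all libraries Atp5k gave -0.96 and Ndufa4 -0.81, and neither was called.

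Other members had nearly the same level in both genotypes. Atp5b was at 214, 268, 242, 223 and 215 CPM in wild type and at 189 to 264 in Gars C201R, with a log2 fold change of 0.00 (SE 0.15). Sdha gave 0.08 (SE 0.16), Sdhd 0.13 (SE 0.13) and Cox7a2 -0.05 (SE 0.19). The ranges of the genotypes did not overlap for Ndufv3, at 10.5 to 16.5 CPM in wild type and 6.68 to 9.63 in Gars C201R, and for Ndufa10, at 34.5 to 38.3 and 20.0 to 34.1 CPM. Both encode complex I subunits, both were lower in Gars C201R (1.19% of all genes were lower without overlap), and neither was called, with edgeR adjusted p of 0.169 and 0.359. Within title number 20302 (2 libraries a genotype) the members' median difference was -0.37 with 64 of 76 below 0, and within 20401 (2 a genotype) it was -0.30 with 62 of 76 below 0.

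Cox6a2 encodes the heart and skeletal muscle isoform of the complex IV subunit whose widespread isoform is Cox6a1, and it is also known from parvalbumin interneurons. The gene lies at chromosome 7, 128205435 to 128206387 on GRCm38 (GENCODE M21), minus strand. In Cre wild type its counts were 0, 1, 3, 6 and 3, or 0, 0.044, 0.248, 0.453 and 0.341 CPM. In Cre Gars C201R its counts ran from 25 to 71 and its level from 1.35 to 3.51 CPM with a median of 1.90. Every mutant library was above every wild-type library (1.09% of all genes were higher without overlap), and the log2 fold change was 3.19 (SE 0.58, edgeR adjusted p = 0.0253). In the main fits the gene passed the count filter only where Cre Gars C201R, the group in which it is high, was included. Its call and its lack of overlap therefore come from a gene that this group admitted to the test. The call was lost in 7 of 11 fits without 1 library, those without wild-type replicates 1, 3 or 5 or mutant replicates 2, 3, 4 or 5, and their adjusted p over all 11 ran from 0.0128 to 0.0919. It was also lost with the title number as a block (3.81, adjusted p = 0.111) and in a fit of all 23 libraries (3.18, adjusted p = 0.318), all in edgeR. Within title numbers the 2 mutant libraries of 20302 were at 1.35 and 2.34 CPM and its wild-type libraries at 0.248 and 0.341, and those of 20401 at 1.70 and 3.51 against 0 and 0.044.

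Without Cre Cox6a2 was at 0 to 0.638 CPM in wild type, with a median of 0.125, and at 0 to 2.74 CPM in Gars C201R, with a median of 0.865. These ranges overlapped, and it was too low there to be tested. The difference between the genotype effects with and without Cre was 1.08 (SE 1.17, edgeR adjusted p = 0.754), so its rise was not shown to be larger with Cre. The Cre comparison in Gars C201R gave 0.88 (SE 0.61, edgeR adjusted p = 0.282). As a share of the Cox6a pair per kilobase, Cox6a2 made up a median of 0.143% in Cre wild type, 1.42% in Cre Gars C201R, 0.259% in no-Cre wild type and 1.78% in no-Cre Gars C201R. Cox6a1 itself was at 148, 90.7, 144, 146 and 184 CPM in Cre wild type and at 99.8 to 154 in Cre Gars C201R, with a log2 fold change of -0.24 (SE 0.20). Cox6a2 was the minor isoform in every library, with a highest share of 5.74%.

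Muscle RNA was measured beside Cox6a2. The 17 muscle markers, all detected in each group, summed to 3.01 to 7.01 CPM in 4 of the Cre Gars C201R libraries and to 119 and 113 in replicates 4 and 6. Cre wild type had 3.87 to 27.7 CPM, no-Cre wild type 15.9 to 158 and no-Cre Gars C201R 19.1 to 304. In no-Cre Gars C201R replicates 1 to 6 the muscle sums were 19.1, 43.8, 304, 34.7, 288 and 244 CPM. Their Cox6a2 counts were 0, 11, 62, 2, 2 and 19, where 1 CPM was 6.97, 19.8, 22.6, 4.64, 1.70 and 14.3 counts. In no-Cre wild type the sums were 30.3, 25.9, 158, 91.2, 30.1 and 15.9 CPM and the counts 0, 1, 4, 16, 3 and 1. The 4 mutant Cre libraries with the low sums had Cox6a2 at 1.35, 2.34, 3.51 and 1.70 CPM. The 2 with the high sums, both of title number 18405, were at 1.57 and 2.09 CPM. Without title number 18405 the log2 fold change was 3.26 (edgeR adjusted p = 0.0482). The part of muscle RNA in the Cox6a2 values was not tested. The 6 genes listed as parvalbumin interneuron markers were Pvalb, Gad1, Gad2, Slc32a1, Kcnc1 and Syt2. They summed to 153 to 178 CPM in Cre wild type and to 129 to 201.3 in Cre Gars C201R. Without Cre they summed to 125 to 154 CPM in wild type and 101 to 159 in Gars C201R, and all these ranges overlap. With Cre in wild type 1 was called higher and 3 lower, so the genes did not move as 1 set. Between the genotypes with Cre their median log2 fold change was 0.45, with 5 of 6 above 0, the highest at 0.98 and none called by edgeR. Their part in the result was not tested.

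**Figure D4:**
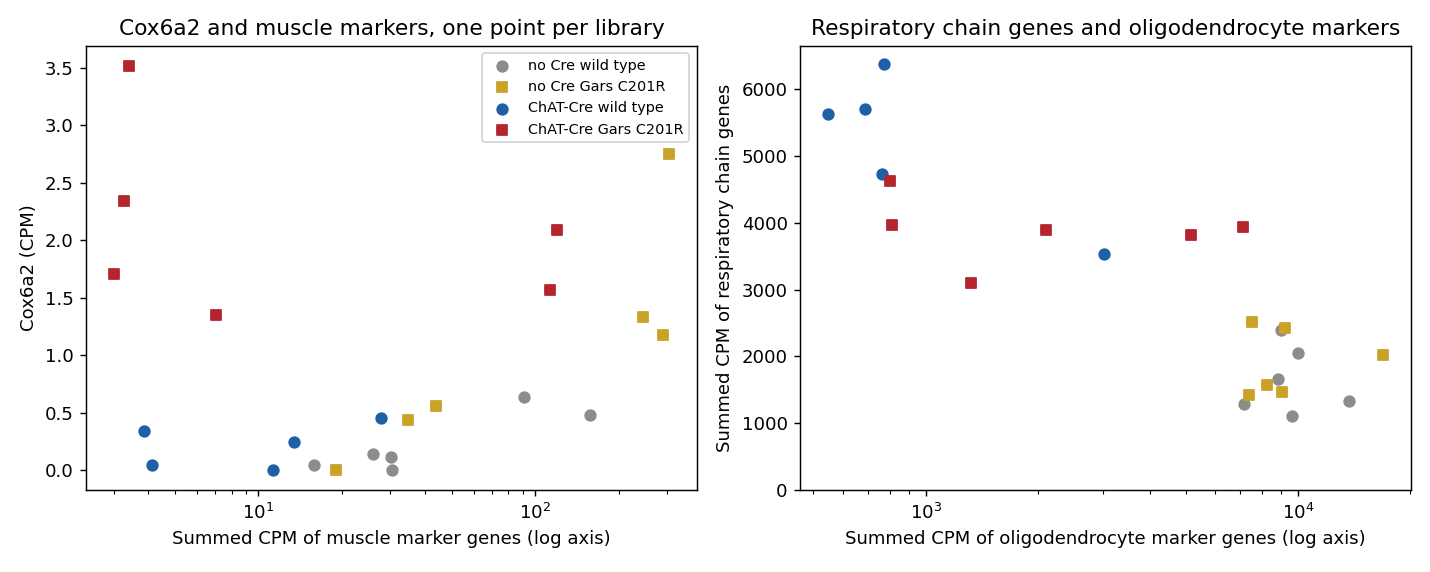
Left, Cox6a2 (CPM, linear) against the summed CPM of muscle markers (log axis); right, summed CPM of all respiratory chain genes against that of oligodendrocyte markers (log axis); one point per library in the 4 groups. Of the 6 Cre Gars C201R libraries, 4 have muscle sums of 7.01 CPM or less and Cox6a2 of 1.35 CPM or more. The 2 with muscle sums of 113 and 119 CPM have Cox6a2 of 1.57 and 2.09 CPM, and the part of muscle RNA was not tested. The Cre wild-type library at 3013 CPM of oligodendrocyte markers has the lowest respiratory chain sum of its group, 3532.

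The other restricted isoforms were near the limit of detection. Cox8b and Cox7a1, both muscle isoforms, had their highest counts in Cre Gars C201R replicate 4, 112 and 62, a library with a muscle sum of 119 CPM, and were at 0 to 11 and 1 to 11 in the other 5. Without Cre they reached 52 and 43 counts. Cox4i2 (lung), Cox6b2 (testis) and Ndufa4l2 reached at most 36, 55 and 30 counts in any library, Cox7b2 3, and Cox8c, a testis gene, was at 0 in all 23. None of these was tested in a comparison of 2 groups, and 10 members in all missed at least 1 such test for low counts. Of the 8 genes listed as widespread isoforms, 7 rose with Cre in wild type (20% of all genes were called higher), with a median of 1.92. The other was Cox7a2l, which is not the partner of a restricted isoform named here. In Gars C201R 7 of these 8 rose (14.1% of all genes), with a median of 1.25. In the genotype comparison with Cre all 8 estimates were below 0 (45.4% of all genes) and none was called.

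Without Cre, 0 of 75 members were called between genotypes in edgeR, and 0 of all 12588 genes were (0%). In simulated data this comparison called 2.2% of genes changed by a log2 fold of 1 and 44.4% at a log2 fold of 2. The lack of calls therefore does not show equal levels. DESeq2 and limma-voom also called 0, and 2 members, Ndufs5 and Ndufs7, were higher and 0 lower at an unadjusted p under 0.05 (2.3% and 2.19% of all genes). The libraries of the genotypes overlapped for all 75, where 0.0794% of all genes were higher and 0.0953% lower without overlap. The median was 0.21, against -0.02 for all genes, with 56 estimates above 0 (48.2% of all genes), and within title number 20301 (4 mutant and 2 wild-type libraries) it was -0.11. Without 1 library the median ran from 0.067 (without Gars C201R replicate 4) to 0.35 (without wild-type replicate 3), and it was also more than 1.5 times smaller or larger without Gars C201R replicate 1 (0.098) and wild-type replicates 2 (0.35) and 5 (0.11). Genes under 1000 bases as a whole had a median of 0.18, and the 59 members that short 0.28.

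The difference between the genotype effects with and without Cre was fitted over all 23 libraries and tested 80 members, with 0 called, where 0.0207% of 14468 genes were. At an unadjusted p under 0.05, 27 members were lower (4.53% of all genes) and 1, Cox8b, was higher (6.01%). The median was -0.56 against 0.12 for all genes, with 67 estimates below 0 (43.9% of all genes), and it was 0.71 against 1.18 with library totals in place of TMM scaling. With the title number as a block it was -0.35 against -0.02. In this contrast the oligodendrocyte markers had a median of 1.47 and the 9 microglia markers 2.83, with 6 of the 9 at an unadjusted p under 0.05 and none called by edgeR, and their part in the members' values was not tested. The smallest p was that of Ndufs5, at -1.75 (SE 0.45, edgeR adjusted p = 0.321). DESeq2 called 2 members lower, Ndufs5 and Ndufa6, an accessory subunit of complex I (0.194% of all genes), and limma-voom 10 (0.65%). By complex the medians were -0.76 for I, 0.13 for II, -0.74 for III, -0.27 for IV and -0.50 for V. Members whose genotype effects differed least included Cox7c at 0.01 (SE 0.34) and Atp5c1, the gamma subunit of ATP synthase, at -0.01 (SE 0.36).

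Genes that work with these subunits were counted from other lists, to be read against the 20% of all genes called higher and 25.9% lower with Cre in wild type, and 14.1% and 19.2% in Gars C201R. Of 5 further subunits and carriers with names outside the rule, among them Cyc1, Cycs (cytochrome c) and Ndufab1, all rose with Cre in wild type, with Cyc1 at 1.40 (SE 0.27), and 3 rose in Gars C201R. Of 42 tested assembly factors, 17 rose and 1 fell in wild type (median 0.91), and 8 rose and 2 fell in Gars C201R (median 0.46). Cox14, which helps build complex IV, rose by 2.37 (SE 0.35) in wild type, and Coa5, another complex IV factor, fell by 1.31 (SE 0.31). Of 18 genes of the tricarboxylic acid cycle, 14 rose in each genotype, with medians of 1.47 and 1.06 and 1 fall in wild type. Of 17 glycolysis genes, 12 rose and 1 fell in wild type (median 1.25) and 10 rose in Gars C201R (median 0.78). Aldoa, the aldolase of glycolysis, rose by 2.51 (SE 0.25) in wild type.

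Of 12 regulators of mitochondrial biogenesis, Esrra rose by 1.76 (SE 0.49, edgeR adjusted p = 0.00752) and Gabpb1 fell by 1.15 (SE 0.43, edgeR adjusted p = 0.0353) with Cre in wild type, and Nrf1 fell by 1.04 (SE 0.36, edgeR adjusted p = 0.0373) in Gars C201R. All 13 mitochondrially encoded subunits fell with Cre in each genotype, with medians of -3.22 in wild type and -3.93 in Gars C201R. Those RNAs are translated on mitochondrial ribosomes, which do not carry Rpl22. In the genotype comparison with Cre none of these lists had a called gene in edgeR, and their medians were -0.29 for assembly factors, -0.22 for the tricarboxylic acid cycle, -0.24 for glycolysis and -0.34 for the mitochondrially encoded subunits, where all genes had 0.06. The regulators had a median of 0.06. At an unadjusted p under 0.05 in either direction, 10 of 42 assembly factors, 6 of 18 genes of the cycle, 4 of 16 glycolysis genes, 3 of 13 mitochondrially encoded subunits and 3 of 12 regulators passed, where 2113 of all 12399 genes did.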

How the data were processed

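Anti-HA precipitates of 23 spinal cord libraries were analysed. Per the submitters' processing notes, the authors used Bowtie2 2.2.0 and RSEM 1.2.12; the genome build is not given in the sources used here. The deposited expected counts (estimated counts per gene, not normalised) were rounded. The deposited effective length (bases, another measure in the same files) served only for levels per kilobase. TPM and FPKM columns were not used. Tests used edgeR 4.0.16 in R 4.3.3: filterByExpr (minimum count 10, total 15), TMM factors, quasi-likelihood F tests on the 2 groups compared (all 23 libraries for the difference of genotype effects), and Benjamini-Hochberg adjustment over all genes with a threshold of 0.05. SE is the size of the log2 fold change divided by the square root of F. Fold changes use factors of the 2 groups, and printed CPM those of all 23 libraries. Calculations were tested on simulated data. There the test of the difference of genotype effects called 2.08% of genes changed by a log2 fold of 1 and 21.2% at 2. Within title numbers, differences used log2(CPM + 0.5).

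Groups came from the labels; replicate numbers follow sample order and pair nothing. No 2 libraries agreed within sampling noise (chi-square over degrees of freedom at least 9.15 in 55 replicate pairs). Of 38924 gene IDs 37607, and all 85 members, matched GENCODE M21. The members and lists were chosen with earlier results of these data known. Genes were named by rule: Cox6a2, the Sdh genes, isoform pairs and the 3 c-ring genes, up to 3 members per complex and comparison with the smallest p, the extremes of fold change, and Chat and Gars. Ndufv3, Ndufa10, Ndufs7 and genes just beside these were chosen after their values were seen. Alternatives were RLE factors, library totals, DESeq2 1.42.0, limma-voom (limma 3.58.1), no filter, 5 CPM, leaving out ribosomal RNA-like genes, title number 18405 or each library, a title number block (only libraries whose number occurs in more than 1 group fitted), and all libraries in one fit. One more, without 18405 and Cre wild-type replicate 2 together, was added after seeing the data.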

Additional observations from a re-analysis of the deposited data

Results flagged for a closer look

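Of 28 groups of summed values examined, 1 had a library far from the rest. The summed level of the complex II genes in no-Cre wild type was 214 CPM in replicate 2, where the other 5 libraries ranged from 73.8 to 115 CPM. Chance flags about 1 in 20 independent groups, and these groups share libraries. In that library the motor neuron markers summed to 82.7 CPM, against 20.4 to 31.4 in the other 5, and their part in the value was not tested.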

How the results depend on the processing

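Settings were compared for each count of members called and each median. Percentages here are the share of all genes tested that was called in either direction by the same fit. In wild type, 71 members were called with Cre (46%), and 25 with library totals only (7.26%). Fits without 1 library gave 66 to 73 (37.1% to 53.0%). In Gars C201R, 49 (33.3%) became 42 to 63 without 1 library (26.5% to 37.8%). For the genotype with Cre, the count of 1 (0.331%) became 9 with DESeq2 (3.33%) and 29 with limma-voom (7.00%). It was 0 with the 5 CPM filter (0.498%), which removed Cox6a2, the 1 gene called in the main fit, before testing. It was also 0 with the title number block (0.157%) and with all 23 libraries in one fit (0.076%). Without title number 18405 and Cre wild-type replicate 2 it was 35 (10.9%). Fits without 1 library gave 0 to 28 (0.0779% to 8.41%), with the highest count without Cre wild-type replicate 2. For the difference of genotype effects, 0 (0.0207%) became 2 with DESeq2 (0.290%) and 10 with limma-voom (1.17%). With library totals only the members' median turned sign for the genotype with Cre (0.54), the genotype without Cre (-0.17) and the difference of genotype effects (0.71), with all-gene medians of 0.79, -0.35 and 1.18. Other settings kept the direction of these medians, and for Cre in Gars C201R library totals moved 0.91 to 2.38. The cause of these changes was not tested. Among values of single named genes, 0 called ones changed sign. Uncalled estimates did so in 65 of 988 values for the genotype with Cre and 76 of 919 for the genotype without Cre. They did so in 84 of 1461 for the difference of genotype effects, 10 of 879 for Cre in wild type and 11 of 943 for Cre in Gars C201R.

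No paired analysis was possible because the replicate numbers follow sample order and pair no libraries. A block for the title number was not run for the genotype without Cre or for Cre in Gars C201R, where 1 title number holds both groups and at least 2 were required. The depth outside ribosomal RNA, at its lowest 594383 counts, limits low genes such as Cox6a2, of which Cre wild type held 13 counts in all.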
